A study of Mus musculus with 25 samples.

Results

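The acrosome is the secretory vesicle over the front of the sperm nucleus, and the genes described here encode proteins of its contents, its membranes and its attachment, together with proteins that act when sperm meet the egg. They are 10 of the 24358 genes of the deposited count table, named by symbol: Acr, Acrbp, Spam1, Hyal5, Spaca1, Spaca3, Zpbp, Zpbp2, Izumo1 and Dpy19l2. All 10 were found, and each was quantified in every condition.

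The study asked how prenatal exposure to bis(2-ethylhexyl)phthalate (DEHP), a plasticizer, alters sperm RNA in mouse strains that differ in their response. Pregnant females received 300 mg/kg/day of DEHP or the corn oil vehicle by mouth from embryonic day 9 to 19. Sperm were taken from the cauda epididymis of male descendants at 14 weeks of age. Total RNA was depleted of ribosomal RNA, fragmented, treated with pyrophosphatase and kinase, and made into small RNA libraries, so that long and short RNA were read together.

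The table covered 5 conditions with 5 libraries each. C57BL/6J controls (C57.CTL.F1 in the figures) were first-generation C57BL/6J males of vehicle-treated mothers. Exposed C57BL/6J males (C57.D300.F1) were first-generation sons of DEHP-treated mothers, and the second generation (C57.D300.F2) were C57BL/6J males further down the DEHP lineage. FVB/N controls (FVB.CTL.F1) and exposed FVB/N males (FVB.D300.F1) were first-generation FVB/N males of vehicle-treated or DEHP-treated mothers. The 10 libraries of the C57BL/6J controls and the exposed C57BL/6J males carry the label of a re-analysis, and the other 15 were new, so library set and condition cannot be told apart in any comparison between these sets. The table holds no vehicle condition of the second generation.

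The authors' program, Cuffdiff, gave 1 estimated count per gene and condition, which combines the 5 libraries, with a variance from its model. The values of single animals are not in the table, so no replicate test was possible. Errors are therefore the SD of that model, and intervals are approximate 95% intervals that cover counting error only. The table's total was 8602900 counts in C57BL/6J controls, 7748902 in exposed C57BL/6J males, 6921688 in the second generation, 7568129 in FVB/N controls and 8278486 in exposed FVB/N males.

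As background, the acrosome forms from the Golgi apparatus in round spermatids and empties its contents near the egg. Transcription stops as the spermatid nucleus condenses, so messenger RNA of these genes in mature sperm was made at earlier stages. The matrix holds proteases and hyaluronidases, and proteins of the inner and equatorial membranes take part in binding to the zona pellucida and in fusion with the oocyte.

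The 10 genes were rare in these libraries. Their estimated counts summed to 583.8 in C57BL/6J controls, 572.2 in exposed C57BL/6J males, 428.6 in the second generation, 153.6 in FVB/N controls and 234.8 in exposed FVB/N males. Per 1000000 counts of the condition these sums were 67.9, 73.8, 61.9, 20.3 and 28.4 in the same order. The sums were high in all 3 C57BL/6J conditions and low in both FVB/N conditions. In bulk RNA, fewer sperm among the cells and less of this RNA per sperm cannot be told apart.

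Depth was a limit for this group. All 10 genes had at least 10 counts in C57BL/6J controls and in exposed C57BL/6J males, 9 had so in the second generation, 5 in FVB/N controls and 6 in exposed FVB/N males. In FVB/N controls, 2 of the genes were at 3 counts or fewer. The model SD of a gene divided by its count had a median over the 10 genes of 0.332 in C57BL/6J controls and 0.580 in FVB/N controls, against 0.276 over all genes with 10 counts or more in each of these conditions.

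Acr encodes acrosin, the serine protease of the acrosomal matrix (ENSMUSG00000022622, GRCm38, chr15:89568326-89574585, plus strand, 5 exons). Its estimated count was 43.8 ± 14.2 (model SD) in C57BL/6J controls, 50.9 ± 15.8 in exposed C57BL/6J males, 39.7 ± 13.0 in the second generation, 6.31 ± 3.86 in FVB/N controls and 14.1 ± 6.34 in exposed FVB/N males. The C57BL/6J values lay close together and well above both FVB/N values, of which the vehicle condition was the lower. On the log2 scale, with 1 added to each count, FVB/N controls stood at -2.62 relative to C57BL/6J controls. The difference of the counts was 2.55 model SDs, and differences in model SDs are those of counts throughout, unless given after a log2 value with ±.

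Acrbp encodes the proacrosin binding protein, which holds the inactive precursor of acrosin in the matrix (ENSMUSG00000072770, chr6:125049689-125063267, plus strand, 10 exons). The annotation places a noncoding transcript, Gm44597, on the same strand over 1854 bases of its span, and this transcript has no row in the table. Acrbp had 89.8 ± 24.7 counts in C57BL/6J controls, 94.9 ± 25.8 in exposed C57BL/6J males, 89.7 ± 24.6 in the second generation, 41.0 ± 13.3 in FVB/N controls and 70.6 ± 20.8 in exposed FVB/N males. The C57BL/6J values were nearly level, and exposed FVB/N males lay within 1 model SD of each of them. FVB/N controls were the lowest condition, with a log2 ratio to C57BL/6J controls of -1.11, the smallest fall among the 10 genes.

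The ratio of acrosin RNA to that of its binding protein had lower point values in FVB/N. The ratio of the Acr count to the Acrbp count was 0.488 (95% interval 0.332 to 0.707) in C57BL/6J controls, 0.536 (0.374 to 0.762) in exposed C57BL/6J males and 0.443 (0.297 to 0.650) in the second generation. It was 0.154 (0.0550 to 0.358) in FVB/N controls and 0.200 (0.104 to 0.357) in exposed FVB/N males. The scaling of a condition cancels in such a ratio. The interval of exposed FVB/N males ended below the point values of all 3 C57BL/6J conditions, and the counting intervals of the strains still overlapped in part. With ranges of 1 model SD, the ratios were 0.488 ± 0.207 and 0.154 ± 0.106 in the vehicle conditions. The ranges of the second generation (0.443 ± 0.189) and exposed FVB/N males (0.200 ± 0.107) overlapped.

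Spam1 and Hyal5 encode hyaluronidases of the sperm surface and acrosome, which act on the hyaluronan between the cumulus cells around the egg. They are neighbours on the plus strand of chromosome 6, Spam1 (ENSMUSG00000029682) at chr6:24791188-24801048 and Hyal5 (ENSMUSG00000029678) at chr6:24857997-24891958, with 56948 bases between them. Spam1 is also transcribed in the epididymis. The pair is shown here by a stretch of 18 bases that both promoter windows hold, in capitals, on the plus strand of the RefSeq promoter sequences of GRCm38.p6.
Spam1: cagttcACTTTGTGATGTCATCTGttccta
Hyal5: ctgtctACTTTGTGATGTCATCTGcttcta

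The stretch began 52 bases before the start site of Spam1 (piece at chr6:24791130-24791159) and 91 bases before that of Hyal5 (piece at chr6:24857900-24857929). Among 32851 promoter windows of all genes, searched on both strands and each running from 250 bases before to 50 after a start site, it was found in 2, those of Spam1 and Hyal5. The 250 bases before each start site, on the gene's strand, were compared over 53 pairs of windows of different genes of the group. The longest shared stretch had a median of 8 bases, and the pair next in length, Dpy19l2 and Spaca1, shared 11. The stretch was chosen after the sequences were seen, and it is a description of the letters.

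Spam1 had 13.9 ± 6.21 counts in C57BL/6J controls, 21.3 ± 8.0 in exposed C57BL/6J males, 13.3 ± 6.36 in the second generation, 2.72 ± 2.45 in FVB/N controls and 3.06 ± 2.48 in exposed FVB/N males. Hyal5 had 14.3 ± 6.16, 11.7 ± 5.39, 9.63 ± 5.00, 2.49 ± 2.34 and 7.86 ± 4.24 counts in the same order. For Spam1 both FVB/N conditions were near the limit of detection. For Hyal5 this held for FVB/N controls, while exposed FVB/N males came within 1 model SD of the second generation.

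Between the vehicle conditions, the count in C57BL/6J controls was 5.11 times that in FVB/N controls for Spam1 (95% interval 1.36 to 30.9) and 5.74 times for Hyal5 (1.48 to 38.5). The ratio of Spam1 to Hyal5 was 0.972 in C57BL/6J controls, 1.82 (0.853 to 4.09) in exposed C57BL/6J males, 1.38 in the second generation, 1.09 (0.124 to 10.2) in FVB/N controls and 0.390 (0.0678 to 1.62) in exposed FVB/N males. The counting intervals of all 5 ratios overlapped one another, and no test of a change between conditions was made.

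Spaca1 encodes a membrane protein of the inner acrosomal and equatorial region that is needed for the acrosome to take its shape (ENSMUSG00000028264, chr4:34024874-34050191, minus strand, 7 exons). Its count was 56.5 ± 17.1 in C57BL/6J controls, 40.6 ± 13.0 in exposed C57BL/6J males, 25.4 ± 9.34 in the second generation, 6.19 ± 3.72 in FVB/N controls and 7.46 ± 4.24 in exposed FVB/N males. The C57BL/6J values were spread, lowest in the second generation, and the FVB/N values lay together far beneath them. Spaca1 had the largest fall of the group between the vehicle conditions, a log2 ratio of -3.00 and a count in C57BL/6J controls that was 9.13 times that in FVB/N controls (95% interval 3.99 to 25.4).

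Spaca3 encodes a lysozyme-like protein of the acrosome (ENSMUSG00000053184, chr11:80858365-80867814, plus strand, 6 exons). It had 23.6 ± 9.20 counts in C57BL/6J controls, 22.8 ± 8.54 in exposed C57BL/6J males, 21.8 ± 8.31 in the second generation, 3.57 ± 2.65 in FVB/N controls and 7.37 ± 4.21 in exposed FVB/N males. The C57BL/6J values differed from each other by far less than 1 model SD. Both FVB/N values lay beneath them, FVB/N controls at a log2 ratio of -2.43 to C57BL/6J controls.

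Zpbp and Zpbp2 encode paralogous zona pellucida binding proteins of the acrosomal matrix. Zpbp (ENSMUSG00000020193) lies on the minus strand at chr11:11279626-11462408 and Zpbp2 (ENSMUSG00000017195) on the plus strand of the same chromosome at chr11:98551097-98558665, each with 8 exons. Zpbp had 96.9 ± 25.5 counts in C57BL/6J controls, 108.0 ± 27.9 in exposed C57BL/6J males, 83.4 ± 23.2 in the second generation, 38.8 ± 13.2 in FVB/N controls and 52.5 ± 16.2 in exposed FVB/N males. Zpbp2 had 159.2 ± 41.6, 127.8 ± 33.7, 74.3 ± 21.4, 26.6 ± 9.86 and 37.8 ± 12.4 counts in these conditions. Zpbp was similar across C57BL/6J, whereas Zpbp2 was lower in the second generation than in C57BL/6J controls by 1.81 model SDs, and both were low in FVB/N.

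The ratio of Zpbp to Zpbp2 within a condition was 0.609 (95% interval 0.468 to 0.789) in C57BL/6J controls, 0.845 (0.648 to 1.10) in exposed C57BL/6J males and 1.12 (0.811 to 1.56) in the second generation. In FVB/N controls it was 1.46 (0.869 to 2.49), and in exposed FVB/N males it was 1.39 (0.897 to 2.17). The interval of C57BL/6J controls lay below those of the second generation and both FVB/N conditions, and it overlapped that of exposed C57BL/6J males. With ranges of 1 model SD, the ratios were 0.609 ± 0.226 and 1.46 ± 0.736 in the vehicle conditions, and these ranges overlapped.

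**Figure D1:**
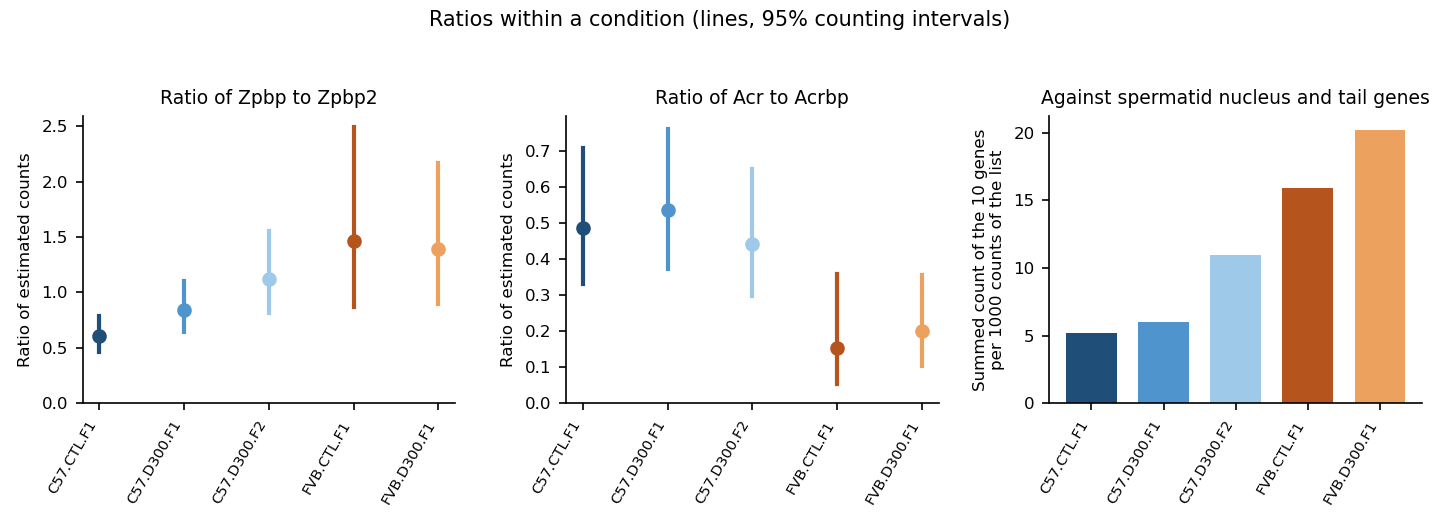
Ratio of the estimated counts of Zpbp to Zpbp2 (left) and of Acr to Acrbp (middle) in the 5 conditions, with lines for 95% counting intervals, and the summed count of the 10 genes per 1000 counts of the spermatid nucleus and tail genes (right). Zpbp to Zpbp2 ran from 0.609 in C57BL/6J controls to 1.46 in FVB/N controls, Acr to Acrbp from 0.154 in FVB/N controls to 0.536 in exposed C57BL/6J males, and the sum per 1000 counts from 5.21 in C57BL/6J controls to 20.2 in exposed FVB/N males.

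Izumo1 encodes the sperm protein that binds the egg receptor Juno and is needed for fusion (ENSMUSG00000064158, chr7:45621811-45628823, plus strand, 10 exons). Its span overlaps Rasip1, a gene on the same strand, over 1336 bases. Its count was 38.8 ± 13.2 in C57BL/6J controls, 33.3 ± 11.8 in exposed C57BL/6J males, 21 ± 8.20 in the second generation, 11.4 ± 5.29 in FVB/N controls and 12.5 ± 5.57 in exposed FVB/N males. The FVB/N values were alike, the second generation lay between them and the first C57BL/6J generation, and the log2 ratio of FVB/N controls to C57BL/6J controls was -1.68.

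Dpy19l2 encodes a nuclear membrane protein that anchors the acrosome to the nucleus (ENSMUSG00000085576, chr9:24557047-24696293, minus strand, 22 exons). It had 47.1 ± 20.2 counts in C57BL/6J controls, 61.1 ± 22.0 in exposed C57BL/6J males, 50.3 ± 18.5 in the second generation, 14.5 ± 8.07 in FVB/N controls and 21.6 ± 10.7 in exposed FVB/N males. It was the only gene of the group whose lowest C57BL/6J value was not in the second generation. The FVB/N values were again the lower ones, with a log2 ratio of -1.64 between the vehicle conditions. Annotated genes on the opposite strand overlap Acrbp, Zpbp and Dpy19l2, and the reads were mapped with strand-specific settings. A small nucleolar RNA, Gm26458, lies on the same strand as Zpbp over 128 bases of its span and has no row in the table.

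**Figure D2:**
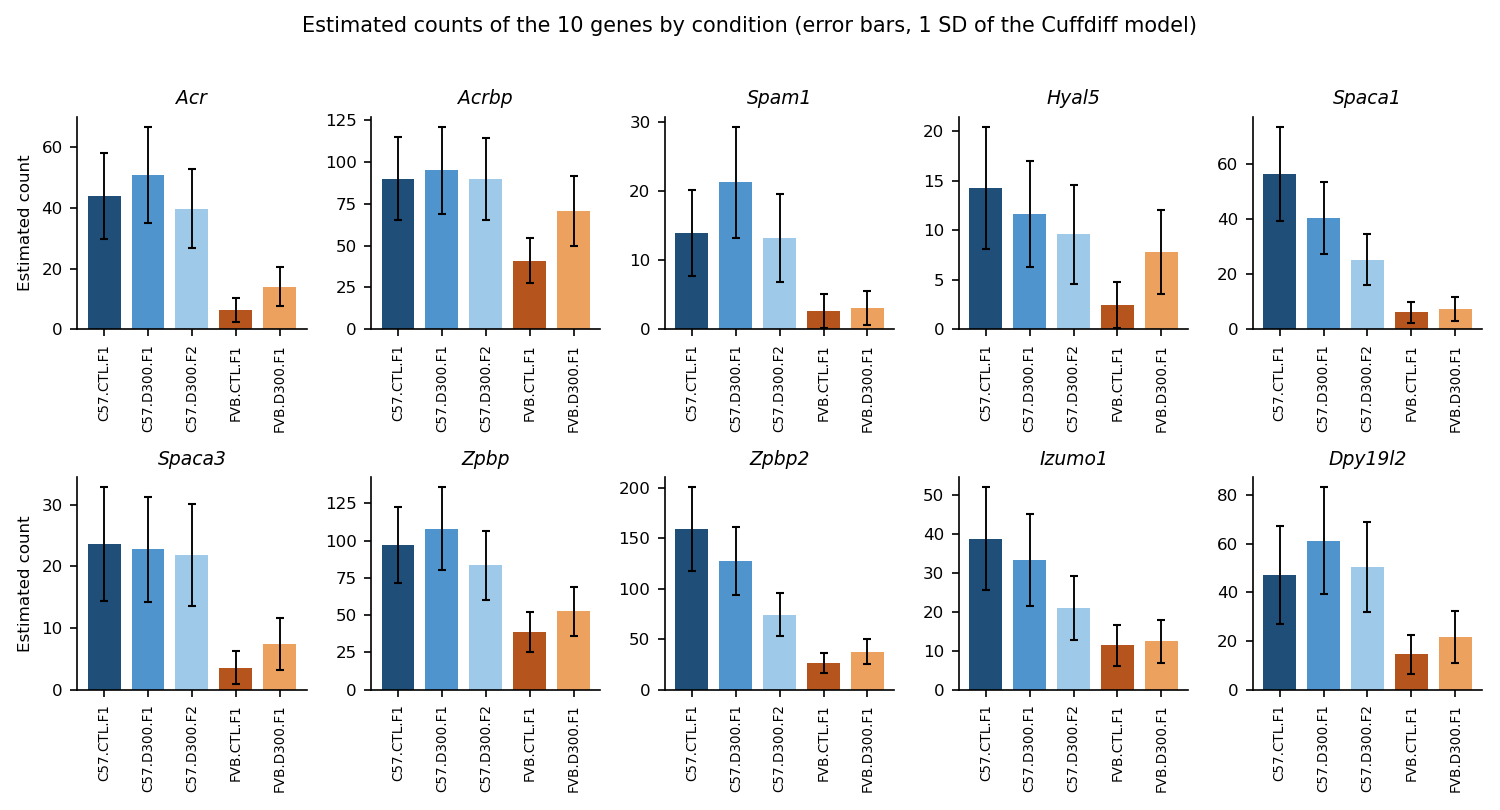
Estimated counts of each of the 10 genes in the 5 conditions (bars), each bar 1 value that combines 5 libraries, with error bars of 1 SD of the Cuffdiff model. In each panel the 3 C57BL/6J bars stand above both FVB/N bars, with the narrowest gap for Hyal5 (9.63 against 7.86 counts) and a wide one for Spaca1 (25.4 against 7.46 counts).

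Levels can be compared between genes only per length. Per kilobase of exon, Zpbp2 was the highest of the 10 in the C57BL/6J conditions, at 109.4 in C57BL/6J controls, 87.8 in exposed C57BL/6J males and 51.0 in the second generation. Acrbp was the highest in FVB/N, at 21.8 in FVB/N controls and 37.5 in exposed FVB/N males. In every condition Spam1 and Hyal5 held the lowest ranks, at 6.59 and 6.9 in C57BL/6J controls and 1.29 and 1.2 in FVB/N controls. By coding length in place of exon length these statements hold except in FVB/N controls, where Zpbp was the highest at 31.7 and Acrbp stood at 25.3.

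The full order in C57BL/6J controls, per kilobase of exon, was Zpbp2, Acrbp (47.7), Spaca1 (47.2), Acr (29.1), Izumo1 (26.0), Spaca3 (24.9), Zpbp (22.8), Dpy19l2 (13.7), Hyal5 and Spam1. Of the 9 pairs of neighbours in that order, 4 differed by more than 1 model SD, Zpbp2 from Acrbp by 1.96. In the second generation Zpbp2 differed from Acrbp (47.6) by 0.173 model SDs. In FVB/N controls the order was Acrbp, Zpbp2 (18.3), Zpbp (9.13), Izumo1 (7.66), Spaca1 (5.17), Dpy19l2 (4.20), Acr (4.20), Spaca3 (3.77), Spam1 and Hyal5. There 1 of 9 neighbours differed by more than 1 model SD, Zpbp2 from Zpbp. Acr thus ranked 4 of 10 in C57BL/6J controls and 7 of 10 in FVB/N controls, among neighbours that did not differ beyond their error in the latter. By coding length Acr ranked 6 and 8 in these conditions, and Zpbp ranked 2 in C57BL/6J controls in place of 7.

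Against protein-coding genes as a whole, the median level of the group was lower in every condition. This median per kilobase of exon was 25.5 in C57BL/6J controls, 24.7 in exposed C57BL/6J males, 20.4 in the second generation, 4.69 in FVB/N controls and 8.06 in exposed FVB/N males. Over the coding genes with a known length, 19842 of them in C57BL/6J controls, the median was 31.1, 31.6, 27.2, 23.4 and 24.4. Single genes stood higher: Zpbp2 lay above 77.5%, 73.6% and 63.2% of the coding genes in the 3 C57BL/6J conditions, and Acrbp above 58.5%, 59.8% and 61.7%.

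The first comparison addresses DEHP exposure in C57BL/6J, first generation. Relative to C57BL/6J controls, the log2 ratios of exposed C57BL/6J males had a median of 0.014 over the 10 genes, against -0.011 over the 16825 genes that reached 10 counts in 1 of the conditions compared. They ran from -0.47 for Spaca1 to 0.58 for Spam1, with 5 above 0 and 5 below, and Spaca3 (-0.050) changed sign under 3 of the 4 other scalings of the conditions. A gene was counted as higher or lower when its log2 ratio reached 1 unit with at least 10 counts in 1 of the conditions compared. No gene of the group was higher (0 of 10, against 1.09% of all genes) and no gene was lower (0 of 10, against 1.15%). The differences of the counts spanned 0.0668 to 0.739 model SDs. The medians of lists of marker genes of liver, seminal vesicle, epididymis, blood and testis somatic cells, described below, were -0.41, -10.4, -0.27, 0.16 and 0.17 in this comparison, with all 11 seminal vesicle genes lower.

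The same comparison in FVB/N, the strain described as resistant to this exposure, gave a median log2 ratio of 0.52, against 0.0046 over 16471 genes. All 10 ratios of exposed FVB/N males to FVB/N controls lay above 0, from 0.11 for Izumo1 to 1.34 for Hyal5, except that Izumo1 fell to -0.0065 with conditions scaled to equal totals. Of the 10 genes, 6 had at least 10 counts in 1 of the conditions, and of these 1 was higher by at least 1 log2 unit, Acr at 1.05, against 2.16% of all genes. Acr met the minimum only through exposed FVB/N males, with 14.1 counts against 6.31 in FVB/N controls. Acr fell short of 1 unit with conditions scaled to equal totals (0.93), with equal totals that leave out the genes of other tissues (0.97) and with 10 added to each count (0.56). None was lower, against 0.619% of all genes. Hyal5 rose from 2.49 to 7.86 counts, under the minimum, with a ratio of 3.16 and a counting interval of 0.695 to 22.8.

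In this comparison the epididymis list had a median of 5.79 with 19 of 23 genes higher, the blood list 0.57 with 4 of 9 higher, the liver list -0.64, the seminal vesicle list -0.46 and the testis somatic list 0.035. Their part in the result was not tested.

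The increases in FVB/N were small against their error. The largest was 1.2 model SDs, for Acrbp, and 3 of the 10 differences passed 1 model SD. By counting error alone, the interval of the Acrbp ratio was 1.15 to 2.59 and that of the Acr ratio was 0.820 to 6.89.

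Whether exposure acted differently in the strains is asked by the log2 ratio in FVB/N minus that in C57BL/6J, which uses 4 conditions. Its median was 0.70 over the 10 genes and 0.029 over all 17556 genes compared. It lay above 0 for 9 genes, of which Zpbp and Dpy19l2 changed sign with conditions scaled to equal totals, and for Spam1 it was -0.45. Hyal5 was the 1 gene past 1 log2 unit, at 1.62, against 4.45% of all genes, and none was past it on the lower side, against 2.92%. With 10 added to each count Hyal5 did not reach 1 unit, as its log2 ratios were 0.52 in FVB/N and -0.16 in C57BL/6J. Hyal5 was also the 1 gene whose value exceeded its model SD, 1.62 ± 1.46, and it rests on 2.49 counts in FVB/N controls.

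The second generation of the DEHP lineage was compared with both first-generation C57BL/6J conditions. Relative to C57BL/6J controls, the log2 ratios of the second generation had a median of -0.18, against -0.040 over 17114 genes. They were below 0 for 9 genes, but Acr, Acrbp, Spaca3, Zpbp and Spam1 changed sign under 1 or more of the other scalings. None was higher, against 4.10% of all genes, and 2 were lower, against 10.2%: Spaca1 at -1.12 and Zpbp2 at -1.09. Neither reached 1 unit with equal totals (-0.82 and -0.78), by upper quartile (-0.85 and -0.81) or with equal totals that leave out the genes of other tissues (-0.92 and -0.89), and with 10 added to each count Zpbp2 alone did. Izumo1 came next at -0.85. The count differences of these 3 were 1.59, 1.81 and 1.14 model SDs, and for the other 7 genes the difference was below 1 model SD. The liver list had a median of -5.61 here with 16 of 16 lower, the seminal vesicle list -8.65 with 11 of 11 lower, and the epididymis, blood and testis somatic lists 0.15, -0.018 and 0.72.

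Relative to exposed C57BL/6J males, the median log2 ratio of the second generation was -0.36, against -0.046 over 17133 genes. The lowest was Zpbp2 at -0.78 and the highest Spaca3 at -0.058, and Acrbp and Spaca3 changed sign under 3 of the other scalings. None was higher (2.69% of all genes) and none was lower (8.35%). The liver list had -5.22 with 16 of 16 lower, the seminal vesicle list 1.68 with 6 of 8 higher, and the epididymis, blood and testis somatic lists 0.35, -0.56 and 0.37. These comparisons share the second generation with each other and their reference conditions with those above.

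The log2 ratios of the group were farthest from 0 between the strains. Between the vehicle conditions, FVB/N controls relative to C57BL/6J controls, the median log2 ratio was -2.07, against -0.032 over 17086 genes, and -1.91 with counts under 3 set to 3. All 10 genes were lower by at least 1 log2 unit, against 18.8% of all genes, and 0 were higher, against 7.50%. In FVB/N controls Acr (6.31), Spaca1 (6.19), Spaca3 (3.57), Spam1 (2.72) and Hyal5 (2.49) were under 10 counts. These genes met the minimum only through C57BL/6J controls. The share over all genes was not matched for count level. With equal totals or by upper quartile 9 were lower, as Acrbp stood at -0.93 and -0.95. With 10 added to each count 7 were lower, without Acrbp (-0.97), Spam1 (-0.91) and Hyal5 (-0.96). At 2 log2 units 6 of the 10 were lower, against 8.88% of all genes, and of these Spam1 and Hyal5 rest on 2.72 and 2.49 counts in FVB/N controls. The summed count of the group in C57BL/6J controls was 3.80 times that in FVB/N controls. The differences of single genes spanned 1.5 to 3.10 model SDs, and 5 of the 10 passed 2 model SDs on the lower side, against 10.9% of all genes: Zpbp2, Spaca1, Acr, Spaca3 and Zpbp. Zpbp, at 2.02 model SDs, fell below 2 with equal totals (1.78), by upper quartile (1.81) and with equal totals that leave out the genes of other tissues (1.93), so that 4 remained. The liver list had a median of -7.43 with 16 of 16 lower, the seminal vesicle list -9.86 with 11 of 11 lower, the blood list -1.03 with 5 of 10 lower, and the epididymis and testis somatic lists 0.25 and 0.16.

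Between the exposed conditions, exposed FVB/N males relative to exposed C57BL/6J males, the median log2 ratio was -1.48, against -0.072 over 17377 genes. All 10 ratios were below 0, and 8 genes were lower by at least 1 log2 unit, against 19.9% of all genes. The other 2 were Acrbp at -0.42 and Hyal5 at -0.52. In exposed FVB/N males Spaca1, Spaca3, Spam1 and Hyal5 were under 10 counts and met the minimum only through exposed C57BL/6J males. Zpbp, at -1.03, did not reach 1 unit by median of ratios (-0.99) or by upper quartile (-0.90), and with 10 added to each count 5 genes were lower. At 2 log2 units 2 of the 10 were lower, Spam1 at -2.45 and Spaca1 at -2.30, against 7.67% of all genes. The liver list had a median of -7.77 with 16 of 16 lower, the epididymis list 6.58 with 19 of 23 higher, and the blood list -1.16 with 6 of 10 lower and 4 higher. The seminal vesicle list had 0.0 with 4 of 6 higher and 0 lower, and the testis somatic list -0.050 with 1 of 6 higher and 1 lower.

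Both strain comparisons above set new libraries against re-analysed ones. The comparisons of the second generation with the FVB/N conditions stay within the 15 new libraries, although they join strain with generation and lineage. Relative to FVB/N controls, the second generation had a median log2 ratio of 1.67, against 0.0041 over 16969 genes, and 1.59 with counts under 3 set to 3. All 10 ratios were above 0, 9 genes had at least 10 counts, and 8 of these were higher by at least 1 log2 unit, against 11.6% of all genes. In FVB/N controls Acr, Spaca1, Spaca3 and Spam1 were under 10 counts and met the minimum only through the second generation. With 10 added to each count 5 were higher, without Acrbp (0.97), Zpbp (0.94) and Spam1 (0.87). At 2 log2 units 2 were higher, Acr at 2.48 and Spaca3 at 2.32, against 2.50% of all genes. The differences of 3 genes passed 2 model SDs, against 4.43% of all genes: Acr, Spaca3 and Zpbp2. Izumo1, at 0.83, was the 1 gene with at least 10 counts that did not reach 1 unit. Marker genes of other tissues moved in the same comparison: the liver list had a median of 1.92 with 15 of 16 higher, the blood list 1.07 with 7 of 10 higher, and the seminal vesicle list 1.47 with 4 of 8 higher and 1 lower, while the epididymis and testis somatic lists had -0.22 and 0.15. Their part in the result was not tested.

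Exposed FVB/N males and the second generation both descended from DEHP-treated females, each of its own strain. Relative to exposed FVB/N males, the second generation had a median log2 ratio of 1.07, against 0.010 over 17122 genes. All 10 ratios were above 0, from 0.26 for Hyal5 to 1.81 for Spam1. Of the 9 genes with at least 10 counts, 5 were higher by at least 1 log2 unit, against 10.6% of all genes, and none of the 10 by 2 units, against 2.02%. The 5 were Acr, Spaca1, Spaca3, Spam1 and Dpy19l2, and with 10 added to each count Spaca3 (0.87), Spam1 (0.83) and Dpy19l2 (0.93) did not reach 1 unit. In exposed FVB/N males Spaca1, Spaca3 and Spam1 were under 10 counts and met the minimum only through the second generation. Here the epididymis list had a median of -6.30 with 19 of 23 lower, the liver list 2.57 with 15 of 16 higher, and the seminal vesicle list 2.14 with 4 of 8 higher and 1 lower. The blood list had 0.21, with 1 of 10 higher and 3 lower, and the testis somatic list 0.35. Of the tissue lists, the blood median in the second generation against C57BL/6J controls and the testis somatic medians under DEHP in FVB/N and between the exposed strains changed sign under other scalings.

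**Figure D3:**
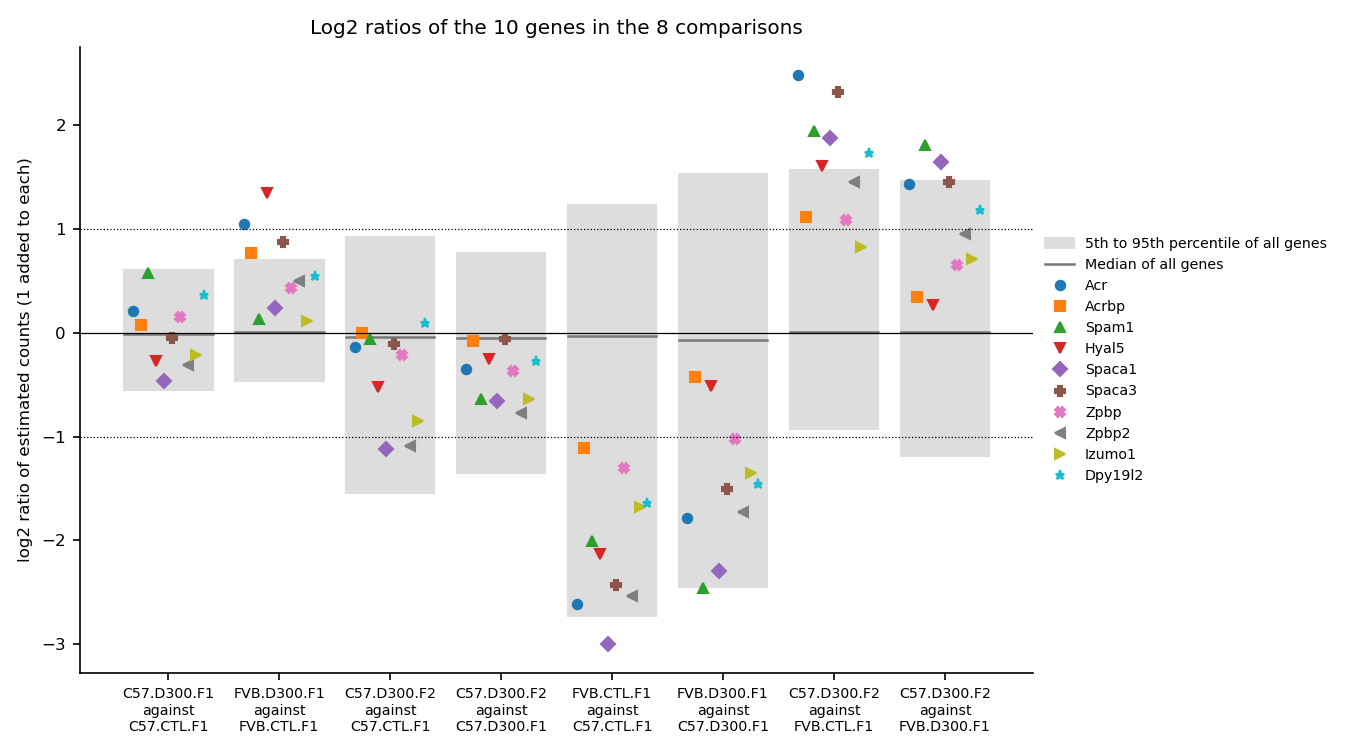
Log2 ratios of the 10 genes (symbols) in the 8 comparisons, with 1 added to each count, dotted lines at 1 unit, grey boxes from the 5th to the 95th percentile of all genes and a grey bar at their median. Symbols lie on both sides of 0 in exposed C57BL/6J males against C57BL/6J controls (median 0.014) and all below -1 in FVB/N controls against C57BL/6J controls (median -2.07), while the signs of Izumo1 in exposed FVB/N males against FVB/N controls and of Spaca3, Acr, Acrbp, Zpbp and Spam1 in the comparisons within C57BL/6J change under other scalings of the conditions as given in the text.

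Read without a threshold on the ratio, all 3 C57BL/6J values lay above both FVB/N values for 10 of the 10 genes. The share was 32.4% over the 17701 genes that reached 10 counts in 1 of the 5 conditions. Spaca1, Spaca3, Spam1 and Hyal5 reached 10 counts only in C57BL/6J conditions. The 10 genes were read in the same libraries and are not independent observations. Under each of the 4 other scalings the separation held for 10 genes as well. The highest FVB/N value was that of exposed FVB/N males in all 10 genes. The lowest C57BL/6J value was 1.23 times the highest FVB/N value for Hyal5, 1.27 times for Acrbp and 1.59 times for Zpbp. For Hyal5, Acrbp and Izumo1 this gap was below 1 model SD. The widest separations were 3.41 times for Spaca1 and 4.33 times for Spam1, the latter with 3.06 counts in exposed FVB/N males and a counting interval of 1.21 to 23.1.

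Other genes of the same processes showed the strain difference too, with exceptions. Of 30 other acrosome genes on a list, 27 were in the table and 26 had at least 10 counts in 1 condition. In FVB/N controls relative to C57BL/6J controls their median log2 ratio was -1.92, with 22 of 25 lower and 1 higher. Over all genes these shares were 18.8% and 7.50%. Actl7a, which acts in the subacrosomal layer, fell from 281.8 to 23.1 counts. Plcz1, the egg activating phospholipase of sperm, fell from 226.8 to 26.4 counts. The exception was Lyzl4, a lysozyme-like gene, with 35.5 counts in C57BL/6J controls and 134.7 in FVB/N controls.

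Of 22 further genes for egg binding and fusion, 19 were in the table and 18 had at least 10 counts in 1 condition. Their median log2 ratio between the vehicle conditions was -1.40, with 10 of 18 lower and 2 higher. Adam3, needed for sperm to pass into the oviduct, fell from 447.5 to 59.5 counts. The higher ones were Spaca6, a fusion gene, from 38.5 to 106.3 counts, and Izumo4, from 150.7 to 303.7 counts. Izumo4 thus moved in the opposite direction to Izumo1.

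The nucleus and tail genes of spermatids, 30 of 30 in the table, had a median log2 ratio of -2.70 between the vehicle conditions, with 27 of 29 lower. The 16 meiotic germ cell genes, 14 of them with at least 10 counts in 1 condition, had a median of -1.54, with 8 of 14 lower. The median fall of the 10 genes was thus smaller than that of the nucleus and tail list and larger than that of the meiotic list, with no test of the difference between lists.

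In the second generation relative to C57BL/6J controls, the medians were -0.63 for the other acrosome genes (6 of 26 lower), -0.57 for the egg binding and fusion genes (3 of 18), -1.01 for the nucleus and tail genes (17 of 29) and -0.52 for the meiotic genes (3 of 14), none of which changed sign under other scalings. Of all genes 10.2% were lower there. The median of the 10 genes, -0.18, was nearer to 0 than each of these and changed sign. Under DEHP in C57BL/6J these medians were -0.12, -0.12, -0.15 and 0.11 in the same order, the first 3 changing sign with conditions scaled to equal totals. Under DEHP in FVB/N they were 0.21, 0.45, 0.35 and 0.17. Ace, which codes for the testis and somatic forms of angiotensin converting enzyme, rose from 523.3 to 2693 counts there.

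Relative to C57BL/6J controls, the medians of the nucleus and tail list lay below those of the 10 genes in the second generation and in FVB/N controls. Within the new libraries, the second generation relative to FVB/N controls had 1.70 for that list and 1.67 for the 10 genes, and relative to exposed FVB/N males it had 1.35 and 1.07. No test of the difference between lists was made. The summed count of the 10 genes per 1000 counts of the nucleus and tail list was 5.21 in C57BL/6J controls, 6.02 in exposed C57BL/6J males, 11 in the second generation, 15.9 in FVB/N controls and 20.2 in exposed FVB/N males. The list itself summed to 112168, 95089, 39003, 9638 and 11608 counts. Beside the other acrosome genes, the 10 genes had 99.9, 99.2, 138.4, 145.0 and 188.6 counts per 1000 counts of that list. Beside the other egg binding and fusion genes these were 241.5, 268.5, 277.6, 117.4 and 64.4, and beside the meiotic genes 428.4, 410.0, 471.5, 261.1 and 340.8. Some of these shares rest on single genes. Without Crisp2 the shares beside the other acrosome genes were 251.9, 281.4, 356.6, 287.5 and 366.4. Without Ace, which held 2693 of the 3646 counts of the egg binding list in exposed FVB/N males, they were 373.2, 393.7, 396.0, 195.7 and 246.4. Without Mlh3 those beside the meiotic genes were 532.0, 511.4, 691.6, 468.8 and 582.2. Both FVB/N shares lay above all C57BL/6J shares beside the nucleus and tail list, and below them beside the egg binding list. This held whichever 1 gene was left out, and did not hold for the other lists. Leaving out several genes at once, such as Ace, Izumo4 and Spaca6, was not tried.

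**Figure D4:**
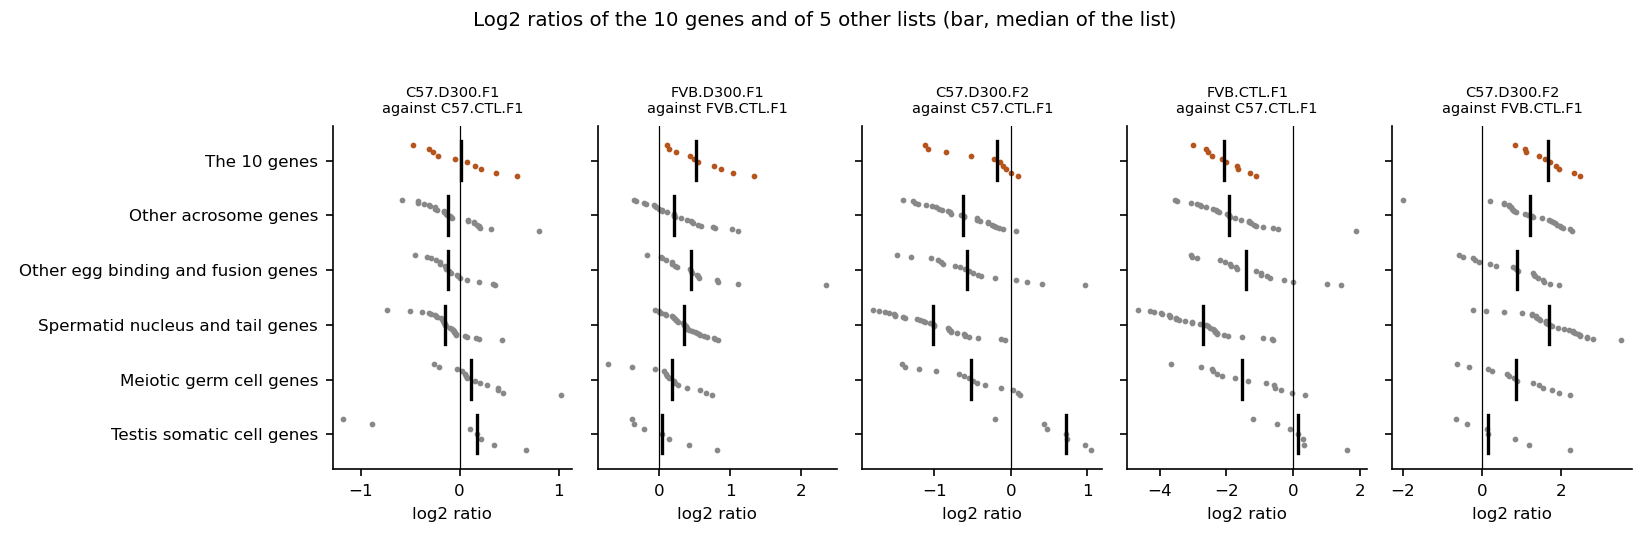
Log2 ratios of the 10 genes and of 5 other lists in 5 comparisons, 1 point per gene with at least 10 counts in 1 of the 5 conditions, bars at the median of each list. In FVB/N controls against C57BL/6J controls the medians were -2.07 for the 10 genes, -1.92 and -1.40 for the other acrosome and egg binding lists, -2.70 for the nucleus and tail list, -1.54 for the meiotic list and 0.16 for the testis somatic list, while in exposed C57BL/6J males against C57BL/6J controls the first 3 of the other lists change sign with conditions scaled to equal totals, as the 10 genes do in the second generation against C57BL/6J controls.

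Markers of other tissues also differed between the conditions, with a pattern that was not the same for each list. The liver list, 16 of 16 genes in the table, summed to 311300 counts in C57BL/6J controls, 253306 in exposed C57BL/6J males, 9519 in the second generation, 3662 in FVB/N controls and 3076 in exposed FVB/N males. All 16 were lower in FVB/N controls than in C57BL/6J controls, none was at 0 in any condition, and the most abundant was Alb in both first-generation C57BL/6J conditions and Trf in the others. The liver sum was high in the re-analysed libraries and low in the new ones, and among the new ones it was higher in the second generation than in both FVB/N conditions, as the sum of the 10 genes was.

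The seminal vesicle list, 11 of 11 genes, summed to 263176, 1153, 1804, 2528 and 2318 counts in the same order of conditions. It was high in C57BL/6J controls alone, where Svs4 led, and Svs1 led elsewhere. Spink1 was at 0 in exposed C57BL/6J males, and Svs3b and Spink1 were at 0 in exposed FVB/N males. In exposed C57BL/6J males all 11 were lower than in C57BL/6J controls, while the sums of the acrosome group in these conditions were 572.2 and 583.8.

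The epididymis list, 24 of 24 genes with 23 quantified in every condition, summed to 85485, 58451, 75593, 72103 and 133143 counts over those 23. Among the 23 the most abundant was Pate4 in C57BL/6J controls, a gene that the seminal vesicle list also holds, Cd52 in exposed C57BL/6J males and the second generation, and Adam7 in both FVB/N conditions. In exposed FVB/N males relative to FVB/N controls, 19 of 23 were higher, against 2.16% of all genes, among them Lcn5 with 9.18 and 6686 counts. No gene of the 23 was at 0, but in each of the other 4 conditions 6 or 7 of them were at 3 counts or fewer, Lcn6, Cst11 and Cst12 in all 4. The gene left out is Crisp1, which was quantified only in C57BL/6J controls, with 108274 counts, and in exposed FVB/N males, with 219328, more than any of the 23.

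The blood list, 11 of 12 genes in the table, summed to 8737, 11440, 7688, 3636 and 8901 counts. Its most abundant gene was Lyz2 in C57BL/6J controls, Cd74 in the next 3 conditions and Hbb-bs in exposed FVB/N males, and 5 of 10 genes were lower in FVB/N controls than in C57BL/6J controls. The testis somatic list, 10 of 10 genes, summed to 375.0, 405.8, 585.9, 459.8 and 539.4 counts. Wt1 led it in C57BL/6J and Cyp17a1 in FVB/N, Rhox5 was at 3 counts or fewer in all conditions, and its median between the vehicle conditions was 0.16. In the blood list Hba-a1 had 0.0052 counts or fewer in all conditions. The part of the liver, seminal vesicle, epididymis, blood and testis somatic genes in the results for the acrosome and egg binding genes was not tested.

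Outside all lists, the genes nearest in profile to the group were sought among 8072 genes with at least 100 counts in every condition, by the root mean square difference of centred log2 counts over the 5 conditions. The 5 nearest were Fam220a (0.127), Phf7 (0.142), 1700001L05Rik (0.147), C3 (0.151) and B230208H11Rik (0.183). Phf7, for instance, had 490.2, 489.8, 309.0, 131.8 and 164.2 counts in the order of conditions used above. Within the group, Dpy19l2 was nearest to the common profile at 0.196 and Acrbp farthest at 0.474.

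The promoters of the group were read as a description of their letters. The factor CREM binds the cyclic AMP response element and drives many genes of the spermatid, so the full element TGACGTCA and its core TGACG, which lies within it, were searched on both strands. RefSeq promoter windows (GRCm38.p6) were held for 9 of the 10 genes, 11 windows in all, and none was held for Acr. These windows are the reference sequence, and no FVB/N sequence was read. The part of CREM in the strain difference was not tested. The full element was in 1 window, that of Izumo1, against 588 of 32851 windows (1.79%). The core was in 8 of the 11 windows, from 6 of the 9 genes, against 20.8% of all windows. The windows of Spaca1 overlap one another, as do those of Spaca3, and their shared matches were counted in each. No share per gene was taken over all genes.

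Pieces of 30 bases around the matches are given 5′ to 3′ on the strand of the gene, with the match in capitals. That of Zpbp2 reads as the reverse complement, because its match is on the other strand.
Izumo1: ctgccaccctaTGACGTCAcgatgggatgg
Acrbp: cctcaccttctgTGACGtagcagccgcgcc
Spaca1: ggtgacgcgcggTGACGcctcaatggttac
Spaca3: cacaggtgatctTGACGaagttccgtgagt
Zpbp2: gtttcctttactCGTCAcaccaccaggccg

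The pieces lie at chr7:45621704-45621733 for Izumo1, chr6:125049897-125049926 for Acrbp, chr4:34050107-34050136 on the minus strand for Spaca1, chr11:80858289-80858318 for Spaca3 and chr11:98550938-98550967 for Zpbp2. The matches began 96 bases before the RefSeq start site for Izumo1, 18 for Acrbp and 147 for Zpbp2. The RefSeq start of Acrbp lies 238 bases downstream of the GENCODE start given above, and those of Spaca1 lie 126 and 124 bases downstream, so that their matches are within the GENCODE span. For Spaca1 and Spaca3, which have 2 windows each, they began 59 or 57 and 62 or 88 bases before it. Spaca1 holds a further core 10 bases upstream, in lower case in its piece, and the match of Dpy19l2 lay 11 bases after its start. A match describes the letters of the window.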

How the data were processed

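Sperm RNA from 25 mouse libraries was read from the table deposited by the authors, which holds 1 value per gene and condition. Per the file headers and the study's methods its unit is signal, an estimated fragment count from Cuffdiff with no division by gene length. Scaling between libraries by Cuffdiff is assumed here, as the methods do not state it. The deposited variance of that count, another unit (other), gave the model SD. The authors used CASAVA 1.8.2, TopHat, Cufflinks and Cuffdiff on mm10, with strand-specific mapping. Cuffdiff options and the annotation release are not given in the sources used here. The 5 count and 5 variance columns (10 columns) and 5 status columns were used, and 10 other columns were not. In 71 genes Cuffdiff failed in at least 1 condition, and those values were treated as missing.

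Log2 ratios used a pseudocount of 1. A gene was called at 1 log2 unit with at least 10 counts in 1 of the conditions compared. Scripts ran in Python 3.11.15 with scipy 1.17.1, pandas 2.3.3, matplotlib 3.10.9 and numpy 2.4.6. The calls were run on simulated counts as a check of the code only. Those counts had Poisson error and changes of 2 log2 units, without the model variance or the low counts seen in FVB/N. With 1 value per condition no replicate test was made. Positions, lengths and overlaps come from GENCODE M21 (GRCm38). Counting intervals are binomial 95% intervals by the Clopper-Pearson formula, applied to the unrounded estimated counts. These are model estimates, so the intervals are approximate.

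The members and the lists (other acrosome, egg binding and fusion, spermatid nucleus and tail, meiotic, testis somatic, epididymis, seminal vesicle, liver, blood) were chosen with earlier results of these data known. Named genes are all members, in each list the 3 highest and 3 lowest log2 ratios of a comparison among genes with at least 100 counts in 1 of its conditions, and the 5 genes nearest in profile. The most abundant gene and the genes at or near 0 of a list, and Crisp1, were named after their values were seen. Alternatives were pseudocounts of 0.1 and 10, 4 scalings, a threshold of 2 units, background minimums, leaving out Spam1, and coding length. Setting counts under 3 to 3, the rule of 2 model SDs, the separation of the strains under the scalings, the shares with genes of a list left out in turn and the stretch shared by Spam1 and Hyal5 were chosen after seeing the data.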

Additional observations from a re-analysis of the deposited data

How the results depend on the processing

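No paired analysis was possible because the table holds 1 value per condition, and leaving out single libraries was not possible for the same reason. Of 299 alternative values of the answers to the comparisons, 29 moved, and 5 that lay within 0.25 log2 units of 0 changed sign. These were the second generation's median against C57BL/6J controls under 3 scalings (0.13, 0.099 and 0.024), and the median under DEHP in C57BL/6J without Spam1 (-0.050), also relative to all genes (-0.039). Of 480 alternative log2 ratios of single members, 6 moved and 25 changed sign, none of them a called one. The count of 10 genes with all C57BL/6J values above both FVB/N values held under the 4 other scalings.

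With a pseudocount of 10, DEHP in FVB/N gave 0 genes higher, and the second generation against C57BL/6J controls had 1 lower. FVB/N controls against C57BL/6J controls had a median of -1.20 and a difference from all genes of -1.18. The exposed strains compared had -1.06, -0.99 and 5 genes lower. The second generation against FVB/N controls had 1.05, 1.04 and 5 higher, against exposed FVB/N males it had 2 higher, and the strain by exposure median was 0.39. These shifts follow from the added counts, which pull ratios of low counts to 0. With a pseudocount of 0.1, the strain comparison of controls had -2.39 and a difference of -2.36.

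With conditions scaled to equal totals, the second generation against C57BL/6J controls had a median of 0.13 with 0 genes lower, while the median of all genes stood at 0.27. By upper quartile these were 0.099, 0 lower and 0.24. Relative to all genes the members had -0.21 to -0.083 over all alternatives of that comparison. Equal totals also gave 0 higher for DEHP in FVB/N, a median of 1.32 for the second generation against exposed FVB/N males (all genes 0.27) and 0.43 for strain by exposure. Equal totals without the liver, seminal vesicle, epididymis and blood genes gave 0 higher for DEHP in FVB/N and 0 lower in the second generation against C57BL/6J controls. The cause was not tested.

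Equal totals moved the median of all genes to -0.12 for DEHP in FVB/N, 0.14 for DEHP in C57BL/6J, 0.11 for the second generation against exposed C57BL/6J males, 0.15 and -0.17 for the strains without and with exposure, and 0.13 for the second generation against FVB/N controls. By upper quartile the second generation stood at 0.17, 0.12 and 0.10 against exposed C57BL/6J males, FVB/N controls and exposed FVB/N males, and FVB/N controls at 0.13 against C57BL/6J controls. Without the tissue genes, equal totals gave the second generation 0.16, 0.14 and 0.22 against C57BL/6J controls, FVB/N controls and exposed FVB/N males, and exposed FVB/N males -0.16 against exposed C57BL/6J males.

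At 2 log2 units, 0 genes were higher under DEHP in FVB/N and 0 lower in the second generation against C57BL/6J controls, with 6 lower between the strains' controls, 2 lower between the exposed strains, and 2 and 0 higher in the second generation against FVB/N controls and exposed FVB/N males. Members with at least 100 counts in every condition gave no value, as 0 met it. By coding length, 5 genes in C57BL/6J controls, 5 in exposed C57BL/6J males, 4 in the second generation, 6 in FVB/N controls and 5 in exposed FVB/N males took another rank per kilobase. Counts of 3 or fewer limit Spam1 and Hyal5 in FVB/N controls.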
